A study of Mus musculus with 9 samples.

Results

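Corneas of Dstn mutant mice in which Srf had been ablated genetically from the corneal epithelium were compared with Dstn mutant corneas that kept Srf, over all genes that the arrays measured. The comparison used 6 of the 9 arrays of the series, 3 for each of these groups. Mutant mice were Dstn corn1 mutants, and the group labelled rescued had that mutation and the epithelial ablation of Srf. A WT group of 3 arrays served as the reference level and entered the fit of the spread. Every mouse in all 3 groups received doxycycline by intraperitoneal injection from postnatal day 28 to 58 and was 58 days old at collection. The background in all groups was a mixture of FVB, Swiss Black, 129, C57BL6/J and A.BY. Each array held RNA from a pool of 10 corneas from 5 mice. The Cre driver, the floxed or transgenic alleles and which of them the mutant and WT mice also carried are not given in the labels used here. All values are log2 intensities of whole corneas, so that fewer cells of a type and less RNA per cell cannot be told apart. A difference of 1 on this scale is a 2-fold ratio of intensities.

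SRF is a transcription factor that binds a short DNA element, the CArG box, through its MADS domain. Its myocardin-related cofactors (MRTFs) are held in the cytoplasm by monomeric actin and enter the nucleus when actin polymerises, and its ternary complex cofactors of the ELK family respond to MAP kinase signalling. Many genes of the contractile and actin machinery and many immediate early genes are textbook SRF targets. Destrin, the product of Dstn, severs and depolymerises actin filaments, and the corn1 mutation leads to filament accumulation, epithelial thickening, inflammation and vessel ingrowth in the normally avascular cornea.

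The labels were checked first on the targeted gene. Srf stood at 10.77, 10.72 and 10.55 in the 3 mutant pools and at 9.14, 9.45 and 8.45 in the 3 rescued pools. The groups did not overlap, and rescued pool 3 was the lowest. Srf fell by 1.67 on the log2 scale (SE 0.21, adjusted p = 0.000841 in limma), a 3.18-fold difference, and its mean in the WT pools was 9.13. Which part of the transcript the deletion removed is not given, so the array value is that of the whole probe set. Dstn, at 12.57 in WT, lay at 5.55, 5.80 and 5.54 in the mutant and at 5.61, 5.62 and 5.63 in the rescued pools, which carry the same mutation (difference −0.01, SE 0.08, adjusted p = 0.96). The tissue markers fitted cornea in every pool, with Krt12, the keratin of corneal epithelium, between 13.49 and 13.94 and Kera, the keratan sulphate proteoglycan keratocan of the stroma, between 12.14 and 12.77 in these 6 pools. Some pools stood apart on other genes. Xist lay at 6.12 in mutant pool 2 and between 11.94 and 12.69 in the other 5 pools. The mean of 3 Y-linked genes was 9.77 in mutant pool 2 and between 7.16 and 9.11 in the other 5. The sex of the mice is not given in the labels used here. The mean of 3 lens crystallin genes (Cryaa, Cryba1 and Crygs) was 10.4 in mutant pool 1 and between 8.18 and 9.0 in the others of these 6. In WT pools 1, 2 and 3 that mean was 11.28, 10.81 and 11.44. Over all 41345 rows of the arrays, with or without a gene symbol, Pearson correlations of a mutant with a rescued array ran from 0.981 to 0.988. Those within the mutant or the rescued group ran from 0.990 to 0.993.

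Of 22180 genes, 1432 (6.46%) were higher and 1527 (6.88%) lower in the rescued pools at an adjusted p under 0.05, in all 13.3% of the genes tested. The median difference over all genes was −0.0019, with quartiles at −0.12 and 0.11. A difference of at least 2-fold was reached by 166 of the higher genes (0.748% of all genes) and by 146 of the lower genes (0.658%). The number of lower genes was 893 without mutant pool 1, 907 without mutant pool 3 and 837 without rescued pool 3. The 3 rescued pools were not alike in depth of response. Among the 146 genes that fell at least 2-fold, rescued pool 3 was the furthest from the mutant mean for 131, and the medians over these genes were 8.15, 8.28 and 7.74 in rescued pools 1, 2 and 3. The same medians lay between 9.35 and 9.51 in the mutant pools and between 6.86 and 6.99 in WT. For the 166 genes that rose at least 2-fold, the medians of rescued pools 1, 2 and 3 were 9.77, 9.79 and 9.82. Rescued pool 3 was the furthest from the mutant mean for 103 of these, pool 1 for 26 and pool 2 for 37. How far the extent of Srf ablation differed between pools was not tested beyond the Srf values above.

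**Figure D1:**
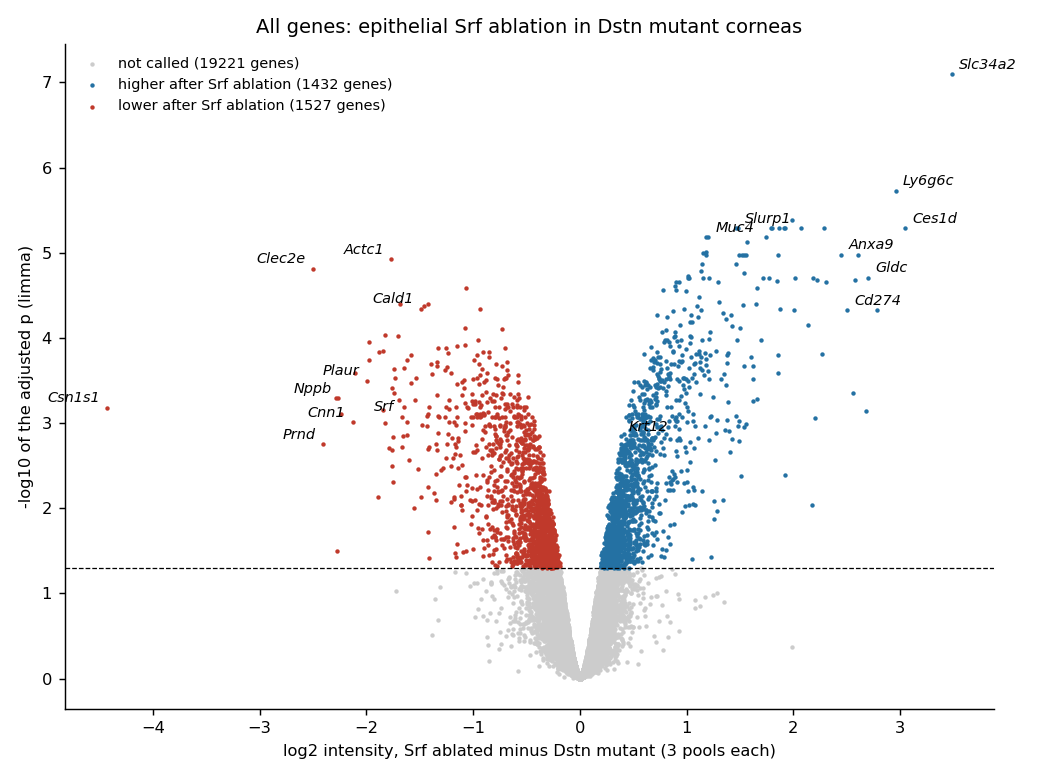
Difference in log2 intensity between Srf ablated and Dstn mutant corneas (x axis) against −log10 of the limma adjusted p (y axis), 1 point per gene and 3 pools a group. Blue and red points are the 1432 higher and 1527 lower genes, grey points were not called, and the dashed line marks an adjusted p of 0.05. Slc34a2 lies at the upper right at 3.49 and Csn1s1 at the far left at −4.43.

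The largest group change was that of actin and contractile genes known as SRF targets. Of 43 members measured, 34 fell, 1 rose and the median difference was −0.84, against 6.88% of all genes called lower and a median of −0.0019 over all genes. The members were chosen as known SRF targets, with earlier results of these data in view. Cnn1, which encodes the smooth muscle actin-binding protein calponin 1, was at 10.05, 9.17 and 8.80 in the mutant pools and at 7.17, 7.52 and 6.95 in the rescued pools. It fell by 2.13 (SE 0.27, adjusted p = 0.00097), a 4.38-fold difference. Tagln, for the actin cross-linker transgelin, was at 10.97, 10.40 and 10.35 in mutant and at 8.73, 8.81 and 8.24 in rescued corneas. The difference was 3.94-fold (−1.98, SE 0.18, adjusted p = 0.000184). In both genes every rescued pool lay below every mutant pool, and WT means were lower again, at 6.24 for Cnn1 and 7.58 for Tagln.

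The muscle-type actins separated by how far they came down. Actc1, cardiac alpha actin, went from 8.24, 8.15 and 8.10 to 6.38, 6.61 and 6.21, not far above its WT mean of 5.84. Its fall of 1.77 (SE 0.10, adjusted p = 1.2e-05) is at least 3.40-fold. A fold is given as a lower bound wherever the lower group mean lies under 6.77, the median of all rows, since signal above background was not shown there. Acta1, skeletal alpha actin, went from 12.89, 12.81 and 12.82 to 11.17, 11.72 and 10.66 (3.16-fold, −1.66, SE 0.23, adjusted p = 0.00142). It stayed 17.9-fold above WT, whose mean was 7.02 (adjusted p = 1.23e-05 for rescued against WT). Acta2, smooth muscle alpha actin, was at 13.88, 13.80 and 13.85 in mutant and at 13.05, 13.29 and 12.67 in rescued pools, a 1.79-fold fall (−0.84, SE 0.19, adjusted p = 0.0176). The groups of Acta2 did not overlap, but its adjusted p was 0.0588 without mutant pool 1, 0.055 without mutant pool 3 and 0.0587 without rescued pool 3. Acta2 remained 16.8-fold above WT (adjusted p = 6.01e-06). Actg2, the enteric smooth muscle actin, fell 2.66-fold from 10.97, 11.11 and 11.06 to 9.26, 10.15 and 9.50 (adjusted p = 0.00192). The cytoplasmic actins moved less, with −0.49 for Actg1 and −0.36 for Actb, both called.

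Genes of LIM proteins, tropomyosin, caldesmon and actinin fell with the actins. Fhl2 and Fhl1 encode LIM-only proteins of muscle and focal adhesions. Fhl2 went from 10.85, 10.63 and 10.52 to 8.90, 9.29 and 8.27 (3.58-fold, adjusted p = 0.000701), and Fhl1 from 10.97, 10.80 and 10.61 to 9.20, 9.59 and 8.31 (3.39-fold, adjusted p = 0.00206). The rescued values of Fhl1 lay on both sides of its WT mean of 8.84, whereas all rescued values of Fhl2 were above its WT mean of 7.25. Tpm1, an actin filament stabiliser, fell 3.07-fold (11.51, 11.64 and 11.46 against 9.90, 10.26 and 9.59, adjusted p = 0.000184). Cald1, caldesmon, fell 2.80-fold with the narrowest spread of these genes (10.78, 10.79 and 10.74 against 9.35, 9.49 and 9.01, adjusted p = 4.52e-05). Actn1, the filament cross-linker alpha actinin 1, fell 2.68-fold (12.82, 12.83 and 12.75 against 11.32, 11.91 and 10.89, adjusted p = 0.002). The other members of the list that fell did so by 0.36 to 1.40. Mylk, for myosin light chain kinase, was the member that rose, by 0.46 (adjusted p = 0.0341). It was no longer called when either mutant pool 1, mutant pool 3, rescued pool 1, rescued pool 3 or any single WT pool was left out, which brings the count of risers to 0 in each case. Members not called included Ccn2, Tln1, Fermt2 and Des.

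**Figure D2:**
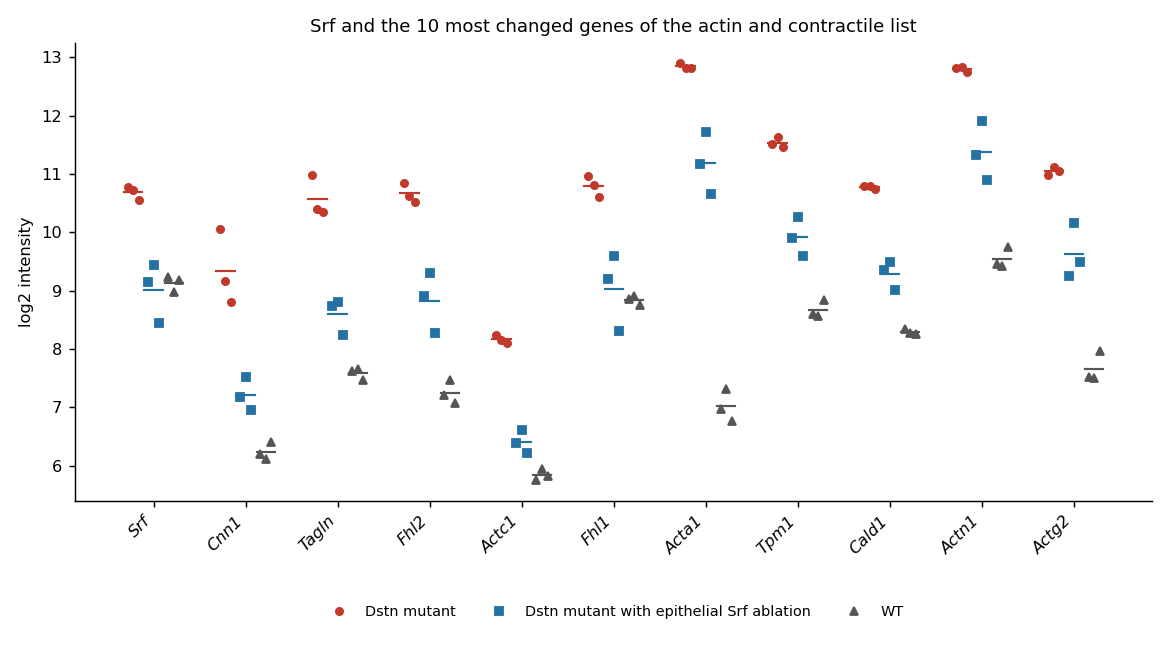
Log2 intensity (y axis) of Srf and the 10 members of the actin and contractile list with the largest change (x axis), with 1 symbol per pool and a bar at the mean of the 3 pools of a group. In all 11 genes the rescued pools lie below the mutant pools, and Acta1 and Actn1 remain well above WT.

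Promoter sequence gave a feature that the expression values had no part in. A CArG box was searched as CC, then 6 bases that are each A or T, then GG, on both strands, in RefSeq promoter windows (GRCm38.p6) of 300 bases that run from 250 bases before a gene's start to 50 after it. This element is identical in form on both strands. It was found for 282 of 16918 genes with a window (1.67%). The share was 4.23% (50 of 1183) among genes called lower and 1.17% (13 of 1109) among genes called higher. It was 13.5% (15 of 111) among those that fell at least 2-fold and 1.65% (2 of 121) among those that rose at least 2-fold. The actin and contractile list held it in 13 of 36 genes (36.1%), and the immediate early list in 3 of 19 (15.8%). Both lists were chosen as known SRF targets, so their shares are not independent of that choice. Without the actin and contractile list, 9 of 98 genes that fell at least 2-fold had one (9.18%). A match is a string of letters and not a measured binding site.

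**Figure D3:**
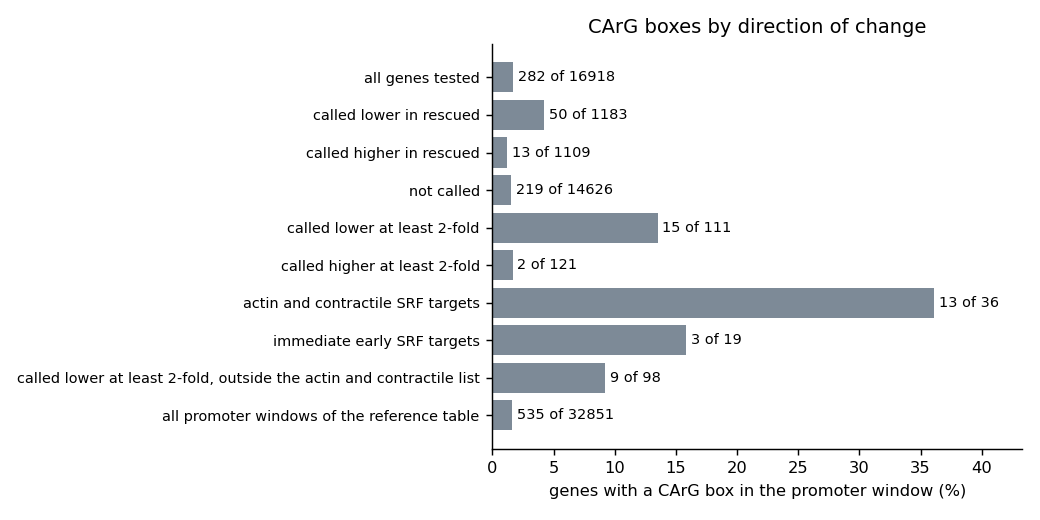
Share of genes with a CArG box in a 300 base promoter window (x axis, percent), by set of genes (y axis), with the counts beside each bar. The actin and contractile list, chosen as known SRF targets, stands at 36.1% and the genes that rose at least 2-fold at 1.65%, next to 1.67% over all genes tested.

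Promoters of 5 genes of the actin and contractile list are printed to show the element where the drop was measured. These are the members with the largest fall whose windows hold the element, and each sequence starts 40 bases before the CArG box and ends at the gene's start, on the gene's strand of GRCm38.p6. Capitals mark the CArG box.
Fhl2, chr1:43163962-43164032, minus strand: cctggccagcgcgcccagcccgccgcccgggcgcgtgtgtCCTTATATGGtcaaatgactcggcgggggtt
Actc1, chr2:114052876-114052962, minus strand: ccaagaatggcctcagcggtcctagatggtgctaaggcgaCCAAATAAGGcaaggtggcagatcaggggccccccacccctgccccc
Fhl1, chrX:56779541-56779682, plus strand: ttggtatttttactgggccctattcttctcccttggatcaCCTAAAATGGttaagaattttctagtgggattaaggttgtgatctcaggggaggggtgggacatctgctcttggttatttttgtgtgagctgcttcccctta
Acta1, chr8:123894776-123894888, minus strand: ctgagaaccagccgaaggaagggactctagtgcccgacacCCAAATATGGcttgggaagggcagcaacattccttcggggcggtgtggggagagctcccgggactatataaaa
Myl9, chr2:156775263-156775463, plus strand: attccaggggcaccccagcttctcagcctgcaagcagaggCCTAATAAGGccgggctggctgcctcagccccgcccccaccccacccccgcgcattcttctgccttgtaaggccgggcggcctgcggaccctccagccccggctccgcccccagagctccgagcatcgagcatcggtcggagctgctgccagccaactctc
The box began 31 bases before the start in Fhl2, 47 in Actc1, 73 in Acta1, 102 in Fhl1 and 161 in Myl9, the gene of a regulatory myosin light chain. Myl9 fell by 1.24 on the log2 scale.

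The promoters of Srf, Clec2e and Ppbp are shown beside them and were chosen after their values were seen. Srf carried a pair of CArG boxes, the first of which begins 82 and the second 62 bases before its start. Clec2e and Ppbp lie outside the actin and contractile list and had 1 box each.
Srf, chr17:46556163-46556284, minus strand: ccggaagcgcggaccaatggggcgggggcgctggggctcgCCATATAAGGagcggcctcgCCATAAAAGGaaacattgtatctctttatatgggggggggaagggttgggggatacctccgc
Clec2e, chr6:129100904-129101013, minus strand: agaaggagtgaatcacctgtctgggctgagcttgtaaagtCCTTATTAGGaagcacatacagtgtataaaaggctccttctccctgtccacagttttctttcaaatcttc
Ppbp, chr5:90768391-90768517, plus strand: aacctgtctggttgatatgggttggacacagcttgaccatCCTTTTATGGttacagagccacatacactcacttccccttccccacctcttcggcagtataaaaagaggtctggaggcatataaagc
Clec2e encodes a C-type lectin of the family of natural killer receptor ligands. It was at 10.00, 9.75 and 10.23 in mutant and at 7.66, 7.37 and 7.44 in rescued corneas, with a WT mean of 5.34. It fell 5.66-fold (−2.50, SE 0.15, adjusted p = 1.54e-05), and the gap between the groups was wider than the spread within either. Ppbp, the chemokine CXCL7 that attracts neutrophils, was at 13.58, 13.73 and 13.47 in mutant and at 12.50, 13.13 and 11.64 in rescued pools. Its fall of 1.17 (SE 0.31, adjusted p = 0.0336) was not called without mutant pool 1, 2 or 3 or rescued pool 1 (adjusted p = 0.0881, 0.0854, 0.0742 and 0.0735). Ppbp stayed at least 62.4-fold above WT, where its mean was 6.46 (adjusted p = 8.57e-06).

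The SRF cofactors moved little beside Srf itself. Of 7 genes in the list of Srf and its cofactors, Srf and Mrtfb were called lower. Mrtfb, 1 of the actin-sensing cofactors, went from 10.31, 10.38 and 10.26 to 9.97, 10.14 and 10.08 (−0.26, SE 0.07, adjusted p = 0.0302). That call was lost without any single mutant pool and without rescued pool 1 or 3 (adjusted p = 0.0528 to 0.0935). Mrtfa differed by −0.11 (SE 0.07, adjusted p = 0.371) and the muscle cofactor Myocd by −0.12 (SE 0.07, adjusted p = 0.312). Elk1, Elk3 and Elk4 differed by −0.05, −0.12 and −0.14 (SE 0.08, 0.07 and 0.06), and none was called.

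Immediate early genes were split. Of 23 measured, 7 fell and 2 rose (39.1% called, against 13.3% of all genes), and the median difference was −0.11. Nr4a1, an orphan nuclear receptor induced by growth signals, went from 10.18, 10.19 and 9.85 to 8.51, 8.78 and 8.17 (3.00-fold, −1.59, SE 0.14, adjusted p = 0.000159). Its relative Nr4a3 fell 2.69-fold (8.18, 8.44 and 8.13 against 7.27, 6.69 and 6.51, adjusted p = 0.00083), and the stress factor gene Atf3 fell 2.39-fold (10.58, 10.39 and 10.23 against 9.24, 9.52 and 8.66, adjusted p = 0.00254). The third member of that receptor family went the other way, as Nr4a2 rose 2.02-fold from 8.30, 8.47 and 8.44 to 9.31, 9.32 and 9.62 (adjusted p = 0.000319). Some of the best known SRF targets of this class were not called, and they were picked out after their values were seen. Fos was at 8.63, 8.54 and 8.65 in mutant and at 8.83, 8.85 and 8.80 in rescued pools, and Egr1 at 8.48, 8.39 and 7.93 against 7.58, 7.67 and 7.04, with differences of 0.22 and −0.84. In both genes the groups did not overlap, which held for 32.2% of all genes, but neither passed the adjusted p.

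Regulators of actin turnover followed the contractile genes in part. Of 35 measured, 14 fell and 2 rose (45.7% called, against 13.3% of all genes), with a median of −0.16. Diaph3 and Fmnl2, formins that nucleate and elongate filaments, fell by 0.89 and 0.85 (adjusted p = 0.00108 and 0.00103). Cfl2, the muscle cofilin that severs filaments as destrin does, went from 12.38, 12.36 and 12.43 to 11.59, 11.65 and 11.29 (1.84-fold, adjusted p = 0.000313), with a WT mean of 11.20. Scin, scinderin, a calcium-dependent severing protein of the gelsolin family, rose 2.78-fold from 9.37, 9.31 and 9.65 to 10.93, 10.68 and 11.14 (SE 0.12 on the log2 scale, adjusted p = 0.000106). Gsn, gelsolin itself, was the other member that rose.

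In the list of adhesion and integrin genes 9 of 28 fell and 2 rose (39.3% called, against 13.3% of all genes). Fblim1, a filamin-binding LIM protein of cell junctions, fell 2.52-fold (8.38, 8.31 and 8.72 against 7.09, 7.49 and 6.84, adjusted p = 0.000831). Enah, which promotes filament elongation at adhesions, and Itgb6, an epithelial integrin subunit induced in wounds, fell by 0.77 and 0.75 (adjusted p = 0.000825 and 0.00155). Fermt3, a kindlin that activates integrins, rose by 0.69 (adjusted p = 0.000222). Only 1 adhesion gene was called higher without mutant pool 1 or without rescued pool 3. Among 18 targets of the YAP and TEAD pathway, which also senses actin, 5 fell and 4 rose. Ankrd1, a muscle ankyrin repeat protein, fell 3.21-fold (9.29, 9.0 and 9.26 against 7.59, 7.58 and 7.34, adjusted p = 3.99e-05) to near its WT mean of 7.08. Ccn1, a matricellular protein that is also in the actin and contractile list, fell 2.25-fold (adjusted p = 0.00229).

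Many genes of epithelial differentiation rose. Of 31 genes of corneal epithelial differentiation, 16 rose and 5 fell, with a median of 0.26, against 6.46% of all genes called higher. Ly6g6c, a secreted or membrane-anchored Ly6 protein, was at 9.37, 9.78 and 9.71 in the mutant and at 12.56, 12.49 and 12.69 in the rescued pools. It rose 7.78-fold (2.96, SE 0.10, adjusted p = 1.87e-06), to just under its WT mean of 13.11. Lypd2, of the same family, rose 4.01-fold from 11.07, 11.47 and 11.78 to 13.36, 13.44 and 13.53 (adjusted p = 4.72e-05). Slurp1, a secreted Ly6 protein abundant in corneal epithelium, rose 2.79-fold from 11.82, 11.87 and 12.01 to 13.28, 13.40 and 13.45 (adjusted p = 5.16e-06). In Ly6g6c and Lypd2 the rescued pools were closer to each other than the mutant pools were. Dsg1a, a desmosomal cadherin of upper epithelial layers, rose 2.90-fold (9.87, 9.25 and 9.54 against 10.90, 11.09 and 11.28, adjusted p = 0.000211).

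The identity genes of the corneal epithelium rose by smaller amounts. Krt12 went from 13.49, 13.54 and 13.56 to 13.92, 13.91 and 13.94, a 1.31-fold rise (0.39, SE 0.05, adjusted p = 0.00142), and its WT mean was 13.95. Pax6, the master regulator of eye development, went from 11.55, 11.85 and 11.66 to 12.10, 12.11 and 12.18 (1.36-fold, adjusted p = 0.00723). The transcription factor genes Klf4, Elf3 and Grhl3 were also among the 16. The gap junction genes Gjb2 and Gjb6, Cldn4, Cdh1 and Krt14 were the 5 that fell, by 0.26 to 0.75.

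The increases past these lists included transporters, lipid and drug metabolising enzymes and mucins. Slc34a2, the epithelial sodium-phosphate cotransporter, had the largest rise of all called genes under the naming rule, from 7.67, 7.38 and 7.52 to 11.03, 10.93 and 11.07 (11.2-fold, 3.49, SE 0.08, adjusted p = 8.02e-08). Its WT mean was 11.82. In the list of transport across the corneal epithelium 8 of 26 rose and 4 fell, and the number of risers was 5 without mutant pool 3. Over all genes, 6.46% were called higher and 6.88% lower. Ano4, of the anoctamin family of scramblases and channels, rose at least 3.67-fold (5.12, 5.14 and 4.91 against 6.91, 6.65 and 7.24, adjusted p = 4.52e-05), and the glucose cotransporter gene Slc5a1 rose 2.04-fold (adjusted p = 0.00166) to above its WT mean of 10.80. Slc20a1, another phosphate transporter, went the opposite way to Slc34a2, from 11.75, 11.56 and 11.51 to 10.42, 10.68 and 10.05 (2.34-fold lower, adjusted p = 0.000536).

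Ces1d, a carboxylesterase that hydrolyses lipids and drugs, rose at least 8.28-fold from 5.74, 5.39 and 5.61 to 8.54, 8.43 and 8.92 (adjusted p = 5.16e-06). It belongs to a list of retinoid, aldehyde and P450 metabolism in which 9 of 26 rose and 2 fell. Over all genes, 6.46% were called higher and 6.88% lower. Cyp2b19, a keratinocyte P450 that makes epoxides of arachidonic acid, rose at least 4.50-fold (5.53, 5.79 and 5.40 against 7.39, 8.48 and 7.36, adjusted p = 0.00909) and stayed below its WT mean of 10.33. The 2 that fell were Crabp2, a retinoic acid carrier (2.55-fold, adjusted p = 0.00794), and Cyp4f39, a fatty acid omega-hydroxylase of the skin barrier (2.26-fold, adjusted p = 0.00096). Gldc, the decarboxylase of the glycine cleavage system, rose 6.51-fold from 7.49, 7.70 and 8.10 to 10.51, 10.16 and 10.73 (adjusted p = 1.97e-05). Of the 9 genes of glycine cleavage and serine synthesis only Gldc and Amt, the aminomethyltransferase of the same complex, rose in this test, and Shmt2 was among the 2 that fell. Shmt2 fell by 0.57 (adjusted p = 0.0238) and lost its call without any single mutant pool (adjusted p = 0.055 to 0.0704). The count of those that fell was 0 without mutant pool 1 or 3 and 1 without mutant pool 2 or rescued pool 2 or 3.

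The transmembrane mucins Muc4 and Muc15, which cover the ocular surface, rose and Muc1 fell, among 9 measured genes of the ocular surface mucin list. Over all genes, 6.46% were called higher and 6.88% lower. Of the 9, 3 had means under the median of all rows in both groups. Muc4 was at 11.88 in each mutant pool and at 13.01, 13.17 and 13.08 in the rescued pools (2.30-fold, SE 0.06 on the log2 scale, adjusted p = 6.53e-06). Muc15 rose 2.68-fold (9.35, 9.46 and 9.46 against 10.92, 10.59 and 11.03, adjusted p = 7.22e-05). Muc1 fell 2.01-fold (10.00, 10.24 and 9.90 against 9.36, 9.27 and 8.48, adjusted p = 0.0122). Without mutant pool 1 the number of genes of this list that fell was 2. Muc5ac, the gel-forming mucin of goblet cells, was below the median of all rows in every pool and not called. The other large increases included Abcg1, a cholesterol exporter (4.54-fold), Anxa9, an annexin of epithelia (5.46-fold), Psca, a Ly6-family surface protein (4.40-fold), Adgrf1, an adhesion receptor (4.82-fold), and Bcas1 (4.88-fold). Their adjusted p values ran from 5.16e-06 to 0.000155. Pbp2, a phosphatidylethanolamine-binding protein, rose 6.42-fold with rescued pools at 9.71, 10.46 and 11.18 (adjusted p = 0.000721). Smim31, Lce3a and S100a7a rose at least 6.10-fold, at least 5.96-fold and 6.89-fold (adjusted p = 1.06e-05, 2.08e-05 and 4.72e-05).

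Stress and simple keratins did not share a pattern. In the list of simple and mucosal keratins 4 of 8 fell and none rose, against 6.88% of all genes called lower and 6.46% called higher. Krt18 and its partner Krt8, keratins of simple epithelia, went from 12.19, 12.38 and 12.18 to 10.66, 10.95 and 10.05 (3.24-fold, adjusted p = 0.000536) and from 12.20, 12.70 and 12.28 to 11.12, 11.53 and 10.62 (2.46-fold, adjusted p = 0.00354). Both remained above WT, Krt18 by 6.16-fold and Krt8 by 7.74-fold (adjusted p = 5.78e-05 and 5.01e-05). Krt23 fell 2.22-fold, with rescued pools at 10.65, 10.70 and 9.40 (adjusted p = 0.0262), and its call was lost without any single mutant pool (adjusted p = 0.0515 to 0.0815). Krt7 fell 1.74-fold (adjusted p = 0.00803).

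Among 40 stress and cornified keratinocyte genes 5 rose and 7 fell (30.0% called, against 13.3% of all genes). The number that fell was 4 without mutant pool 1 or without rescued pool 3. The wound keratins Krt17, Krt16 and Krt6a, given here after their values were seen, were not called. Krt17 was at 13.75, 13.94 and 13.77 in mutant and at 13.44, 13.60 and 13.26 in rescued pools (−0.39, SE 0.12, adjusted p = 0.0706), and it stayed 39.5-fold above WT. Krt16 was at 11.13, 10.68 and 10.99 against 10.96, 11.50 and 11.05 (0.24, SE 0.15, adjusted p = 0.37) and 17.4-fold above WT. The adjusted p values for rescued against WT were 2.46e-08 and 9.42e-07. S100a9, an alarmin of neutrophils and stressed keratinocytes, fell at least 2.94-fold (8.04, 7.17 and 8.64 against 6.60, 6.44 and 6.15, adjusted p = 0.00996). Dmkn, a secreted protein of stratified epithelia, fell 2.53-fold (adjusted p = 0.0021). Serpinb3a, a protease inhibitor of inflamed epithelium, fell 2.69-fold (12.32, 11.78 and 12.22 against 11.52, 10.39 and 10.13, adjusted p = 0.019). Without mutant pool 1 or 3 or rescued pool 2 or 3 its adjusted p was 0.0707, 0.0651, 0.0622 and 0.0658.

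MicroRNA genes were measured as well. Of 483 genes with symbols that begin with Mir, host genes included, 20 rose and 13 fell, 6.83% against 13.3% of all genes, and 3 changed by at least 1 on the log2 scale. The array value does not separate the mature microRNA from its precursor or host transcript. The mature sequences are from RefSeq (GRCm38.p6), with the seed, bases 2 to 8, in capitals, and they were selected after the values were seen.
mmu-miR-204-5p: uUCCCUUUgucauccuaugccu
mmu-miR-204-3p: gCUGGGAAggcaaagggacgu
mmu-miR-184-3p: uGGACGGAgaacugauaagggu
mmu-miR-184-5p: cCUUAUCAcuuuuccagccagc
mmu-miR-5124a: gGUCCAGUgacuaagagcau
No seed is shared between them. Mir204, a microRNA of eye tissues that lies within Trpm3, was at 5.53, 6.01 and 4.69 in mutant and at 7.32, 7.85 and 7.67 in rescued pools, with a WT mean of 9.12. It rose by 2.21 (SE 0.28, adjusted p = 0.000876), at least 4.62-fold. Mir184, known as an abundant microRNA of corneal epithelium, was at 7.08, 7.57 and 7.50 against 8.78, 8.31 and 8.93, with a WT mean of 10.76 (2.45-fold, adjusted p = 0.000923). In both genes every rescued pool lay between the mutant pools and the WT mean. Mir5124a fell at least 2.69-fold (6.96, 7.40 and 6.95 against 5.80, 5.99 and 5.23, adjusted p = 0.00108).

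Interferon response genes were high in some rescued pools and not in others. Of 19 genes, 8 were called higher, none lower, and the median difference was 0.77. Over all genes, 6.46% were called higher and the median was −0.0019. Without rescued pool 3 the count was 16, and without rescued pool 1 it was 5. Oasl1, an oligoadenylate synthetase-like protein, was high in all 3 rescued pools, at 10.92, 11.02 and 10.73 against 9.21, 9.03 and 9.48 (3.14-fold, SE 0.12 on the log2 scale, adjusted p = 3.95e-05). Irf7, a transcription factor of the interferon loop, was at 10.21, 10.19 and 9.59 against 8.76, 8.52 and 8.90 (2.42-fold, adjusted p = 0.00132). Oas2, an antiviral RNA sensor enzyme, was at 10.69 and 10.70 in rescued pools 1 and 2 but at 9.22 in pool 3, within the mutant range of 8.86 to 9.50 (1.08, SE 0.44, adjusted p = 0.15). Isg15, a ubiquitin-like modifier, was at 7.24, 7.59 and 6.48 against 6.10, 5.65 and 6.39, and its call (adjusted p = 0.0391) was lost when mutant pool 1 or 2, rescued pool 1 or 2, or WT pool 1 or 3 was left out (adjusted p = 0.0536 to 0.112). WT pool 2 also stood above the other WT pools in several of these genes, with Oas2 at 9.68 against 8.40 and 8.40. The mean of 3 Y-linked genes was 7.16 in rescued pool 1 and 9.11 in rescued pool 2, the pools with high interferon genes, and 8.89 in rescued pool 3. It was 5.34, 9.77 and 5.15 in WT pools 1, 2 and 3, so that WT pool 2 was the highest there too. In mutant pools 1, 2 and 3 it was 7.77, 9.77 and 8.41. With this mean as a covariate, 8 of the 19 interferon genes were called higher.

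**Figure D4:**
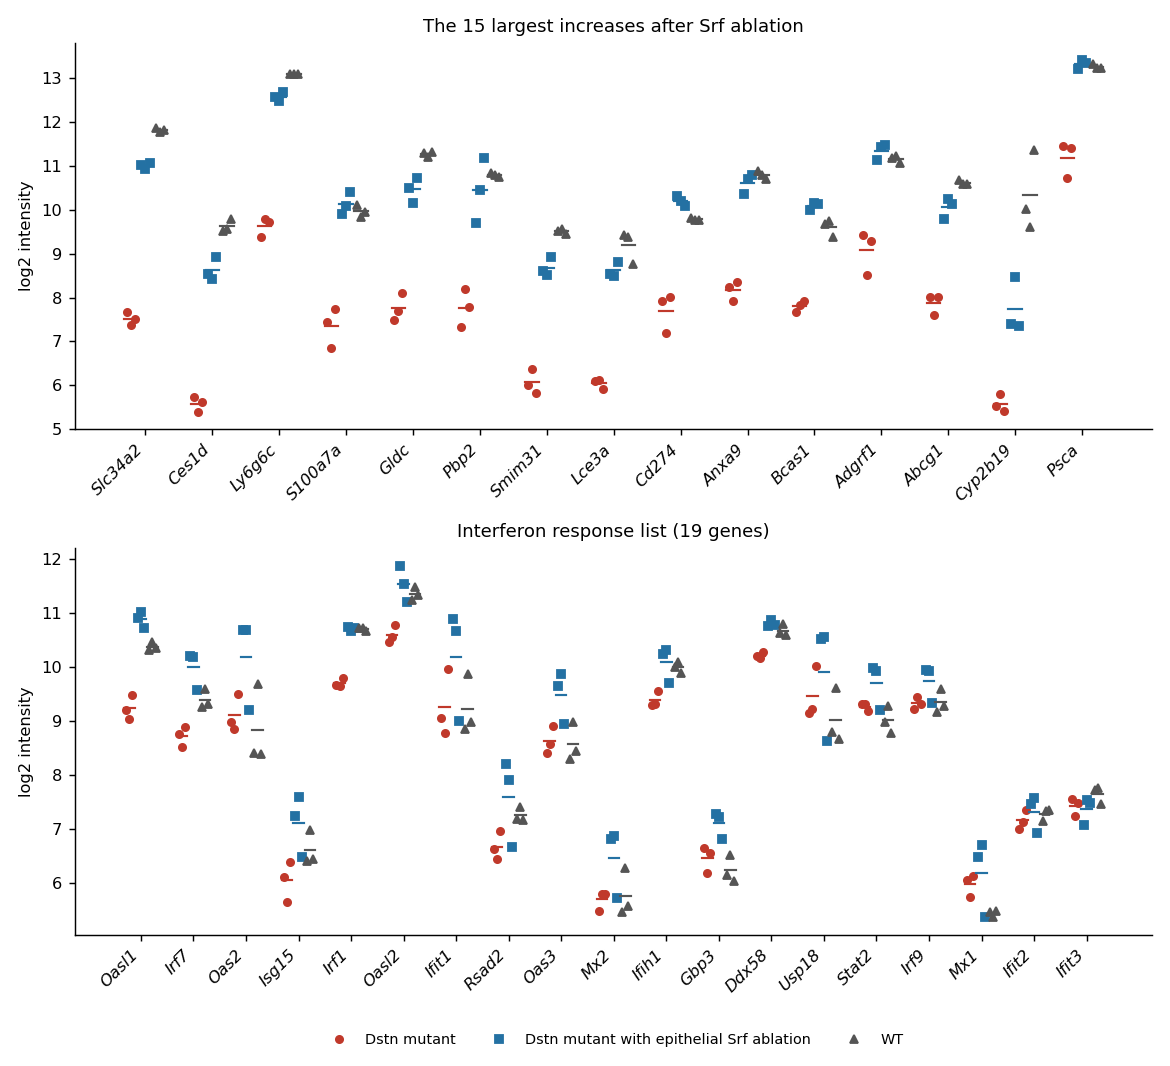
Log2 intensity (y axis) of the 15 largest increases (upper panel) and of the 19 interferon response genes (lower panel), with 1 symbol per pool and a bar at each group mean. Rescued pools are tight for most of the 15 genes, whereas Oas2 lies near 10.7 in rescued pools 1 and 2 and at 9.22 in pool 3.

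Cd274, the checkpoint ligand PD-L1 that interferon can induce, rose 5.67-fold from 7.91, 7.18 and 8.02 to 10.33, 10.19 and 10.10 (2.50, SE 0.18, adjusted p = 4.72e-05). Its 3 rescued pools were alike, also pool 3, and lay above the WT mean of 9.79. In the list of immune checkpoint and privilege genes 2 of 19 rose and 4 fell, against 6.46% of all genes called higher and 6.88% called lower. Those that fell were 2 without mutant pool 1, mutant pool 3, rescued pool 1 or rescued pool 3. The count of risers was 1 without mutant pool 1 or 3, rescued pool 1 or 2, or WT pool 2. Itgam, the integrin subunit CD11b, rose 2.62-fold from 9.47, 8.78 and 9.36 to 10.41, 10.69 and 10.68 (adjusted p = 0.000569). Of the 26 monocyte and macrophage markers, Itgam was the 1 that rose and Cd14 the 1 that fell, and the median difference of the 26 was −0.31. The WT mean of Itgam was 10.33. The number of those markers that fell was 0 without mutant pool 1, 4 without mutant pool 2 and 2 without rescued pool 1.

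The largest decrease of all called genes under the naming rule was that of Csn1s1, the milk protein alpha S1 casein. It was at 9.54, 8.80 and 10.06 in mutant pools and at 6.47, 4.34 and 4.29 in rescued pools, with rescued pool 1 the highest (at least 21.6-fold, −4.43, SE 0.53, adjusted p = 0.000658). Prnd, which encodes the prion-like protein doppel, fell 5.31-fold (11.78, 11.43 and 11.91 against 9.24, 10.12 and 8.53, adjusted p = 0.00178). Dhrs9, a retinol dehydrogenase, fell 4.88-fold (10.18, 10.44 and 10.15 against 8.25, 7.89 and 7.75, adjusted p = 0.000513). Nppb, the natriuretic peptide BNP, fell 4.80-fold (12.31, 11.56 and 11.68 against 9.59, 10.10 and 9.07, adjusted p = 0.000513). Pmaip1, the cell death protein NOXA, and Htra4, a serine protease, fell 3.95-fold and 3.60-fold (adjusted p = 0.000113 and 0.000144). Scgb2b2, a secretoglobin, was at 5.37, 8.03 and 6.16 against 4.13, 5.02 and 3.58 (adjusted p = 0.0315), and its call was lost without mutant pool 3, rescued pool 1 or rescued pool 3 (adjusted p = 0.0617, 0.0849 and 0.112).

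Several secreted factors that act on vessels and leukocytes fell. Of 25 angiogenic factors and inhibitors 9 fell and none rose, against 6.88% of all genes called lower and 6.46% called higher. Without rescued pool 3, 5 of the 25 fell. Adm, the vasodilator adrenomedullin, went from 12.26, 12.15 and 12.17 to 10.53, 11.02 and 9.67 (3.45-fold, adjusted p = 0.00197), and Edn1, the vasoconstrictor endothelin 1, from 11.27, 11.05 and 11.10 to 9.83, 10.08 and 9.24 (2.68-fold, adjusted p = 0.000782). Pdgfb, the growth factor that recruits pericytes, fell by 0.61 (adjusted p = 0.00083). Of 45 chemokines and inflammatory cytokines 11 fell and 1 rose, with a median of −0.29. The riser was not called without mutant pool 1, mutant pool 3 or rescued pool 3, and 2 rose without mutant pool 2. Tslp, an epithelial cytokine of type 2 inflammation, went from 9.27, 9.28 and 9.14 to 7.50, 7.67 and 7.04 (3.55-fold, adjusted p = 9.23e-05). Cxcl5, a neutrophil chemokine, fell at least 2.15-fold (adjusted p = 0.0105), and Cxcl13, a B cell chemokine, was at 8.97, 7.29 and 9.84 against 8.40, 7.26 and 6.43, with overlapping groups (adjusted p = 0.204). Ptgs2, the inducible cyclooxygenase, fell 2.90-fold (11.92, 11.97 and 11.92 against 10.53, 10.71 and 9.96, adjusted p = 0.000295). It was 1 of 5 of 17 prostaglandin and lipoxygenase genes that fell, a count that was 2 or 3 when any single pool other than rescued pool 2 was left out. Alox15 was at 12.10 and 12.55 in rescued pools 1 and 2 and at 9.76 in pool 3, against 12.31, 12.40 and 11.99 in mutant pools, and was not called (adjusted p = 0.454).

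Several genes of matrix and clot proteolysis fell. Of 28 matrix protease and fibrosis genes 10 fell and 1 rose, against 6.88% of all genes called lower and 6.46% called higher. Plaur, the urokinase receptor, went from 10.36, 10.26 and 10.33 to 8.33, 8.79 and 7.83 (4.0-fold, −2.00, SE 0.21, adjusted p = 0.000319). Mmp3, stromelysin 1, fell 3.37-fold (11.76, 10.81 and 11.64 against 9.56, 10.27 and 9.11, adjusted p = 0.00492), and its rescued values stayed well above the WT mean of 6.39. Adam8, a membrane protease of leukocytes and activated epithelium, and Timp1, a metalloproteinase inhibitor, fell 2.86-fold and 2.58-fold (adjusted p = 0.00345 and 0.00658).

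Growth factor pathways showed changes in both directions, and 6.46% of all genes were called higher and 6.88% lower. Among 16 EGF family ligands and receptors 4 fell and 3 rose, and 1 rose without mutant pool 3. Epgn, epigen, an EGF receptor ligand of epithelia, went from 12.97, 12.97 and 12.99 to 11.42, 11.76 and 11.01 (2.99-fold, adjusted p = 0.000338). Ereg, epiregulin, fell 1.89-fold (adjusted p = 0.000472), Fgf7, a stromal growth factor for epithelium, at least 1.89-fold (adjusted p = 0.00152), and Nrg2, a neuregulin, rose 1.57-fold (adjusted p = 0.00179). Among 30 genes of the TGF-beta and BMP pathway 6 fell and 5 rose, and the risers were 3 without mutant pool 3 or rescued pool 3. Inhba, an activin subunit, fell 3.04-fold (8.71, 8.85 and 7.88 against 7.25, 6.83 and 6.53, adjusted p = 0.00275), and Id2, an inhibitor of basic helix-loop-helix factors, rose 1.90-fold (adjusted p = 0.00032). Among 32 Wnt pathway genes 8 rose and 3 fell. Wnt7b, a ligand made by corneal epithelium, rose by 0.68 (8.0, 7.98 and 7.96 against 8.45, 8.67 and 8.85, adjusted p = 0.00149), and the secreted inhibitor gene Frzb fell by 1.14 (adjusted p = 0.00337). The Wnt counts were 3 higher without mutant pool 1, mutant pool 3 or rescued pool 3 and 5 without rescued pool 1 or 2, and 1 lower without mutant pool 1, mutant pool 3, rescued pool 2 or rescued pool 3. Of 15 circadian clock genes 4 rose and none fell, led by Hlf, a clock-controlled transcription factor (2.11-fold, adjusted p = 0.000196). Zeitgeber time of collection is not given in the labels used here.

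Most genes of the cell cycle had slightly lower values in the rescued pools. The median of 41 genes was −0.37, and the groups did not overlap, with rescued lower, in 34 of them, against 17.1% of all genes. Of the 41, 8 fell and 1 rose past the adjusted p, against 6.88% of all genes called lower and 6.46% called higher. Cenpa, the centromeric histone, went from 10.36, 10.43 and 10.40 to 9.81, 10.09 and 9.65 (−0.55, SE 0.11, adjusted p = 0.00904). Bub1, a spindle checkpoint kinase, differed by −0.53 (SE 0.16, adjusted p = 0.0642) without passing the threshold. The count of 8 was 4, 2 and 2 without mutant pools 1, 2 and 3, 5 without rescued pool 1, 3 without rescued pool 3, 16 without WT pool 1 and 5 without WT pool 2. The riser, Kif23, was called in none of the leave-outs of a mutant or rescued pool, nor without WT pool 2. Cdkn2b, the inhibitor p15 of cyclin-dependent kinases, rose by 0.64 (9.10, 9.41 and 9.28 against 9.74, 10.05 and 9.91, adjusted p = 0.00296) and was the 1 riser among 7 such inhibitors. Cdkn2c, the inhibitor p18, was the 1 that fell (−0.34, SE 0.08, adjusted p = 0.0267), and it lost its call without mutant pool 1 or 3 or rescued pool 1 or 3 (adjusted p = 0.0768, 0.0926, 0.0685 and 0.0909).

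Among markers of other cell types in the whole cornea, many of those of blood vessels fell, against 6.88% of all genes called lower. Most markers of leukocytes were not called, which also held for all genes, of which 13.3% were called. Of 25 blood endothelial markers 13 fell and none rose, with a median of −0.51. Plvap, a protein of endothelial fenestrae, went from 8.36, 8.14 and 8.26 to 7.32, 7.58 and 7.15 (1.87-fold, adjusted p = 0.000782). Pecam1, CD31, went from 9.67, 8.90 and 9.61 to 8.32, 8.79 and 8.47 (adjusted p = 0.0234), with a WT mean of 7.05. That call of Pecam1 was lost without mutant pool 1 or 3 or rescued pool 1 or 3 (adjusted p = 0.086, 0.0857, 0.0787 and 0.0752). The count of 13 was 5, 4, 5 and 6 when these pools were left out in the same order, and 3 with the lens level of each pool as a covariate. Of 7 lymphatic endothelial markers 4 fell, which was 1 without mutant pool 1, mutant pool 3 or rescued pool 1. Of 13 pericyte and smooth muscle markers 5 fell, among them Mcam, CD146 (3.68-fold, 10.39, 10.04 and 10.07 against 8.18, 8.63 and 8.04, adjusted p = 0.000146), and the count was 2 without mutant pool 1 or 3 and 3 without rescued pool 3. Some of these pericyte genes, such as Cnn1 and Acta2, are also in the actin and contractile list.

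Ptprc, CD45 of all leukocytes, was at 9.08, 8.18 and 8.57 in mutant and at 8.19, 7.93 and 7.21 in rescued pools, with overlapping groups and a WT mean of 6.21 (−0.84, SE 0.27, adjusted p = 0.0736). None of 16 dendritic cell and MHC class II markers was called by limma (2 were lower at an unadjusted p under 0.05), and H2-Ab1, an MHC class II chain, differed by −0.56 (SE 0.29, adjusted p = 0.261). Of 23 neutrophil markers 6 fell (26.1%, against 6.88% of all genes called lower), among them Cxcr2, their chemokine receptor (−0.81, adjusted p = 0.0036). Among 24 T, B, NK and mast cell markers 1 rose and 2 fell (12.5% called, against 13.3% of all genes). The mast cell protease gene Mcpt4 was at 8.08, 6.48 and 7.71 against 5.43, 5.94 and 5.22 (at least 3.71-fold lower, adjusted p = 0.00732). The number of those lymphoid and mast cell markers that fell was 6 without mutant pool 2 and 1 without any single other pool except rescued pool 1. Mutant pool 2, the pool with low Xist, had the lowest value of the mutant pools for Ptprc, Pecam1, Mcpt4 and H2-Ab1. The part of these cell types in the epithelial and stromal gene changes was not tested.

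Markers of the stroma, the corneal endothelium and tissues around the cornea differed in how many were called, against 13.3% of all genes. Of 29 keratocyte and stromal matrix genes 4 fell and 1 rose, and Kera differed by 0.26 (SE 0.12, adjusted p = 0.22). Those 4 were 0 without mutant pool 1 or rescued pool 3, 1 without mutant pool 3 or rescued pool 1, 2 without rescued pool 2 and 7 without mutant pool 2, and the 1 riser was 2 without mutant pool 1 or 2 and 4 without WT pool 3. Of 10 corneal endothelial markers 3 rose and 1 fell (Car2, by 0.98, adjusted p = 0.00219). None of 19 lens, 12 retina and pigment cell, 15 skeletal muscle, 7 nerve and 2 erythroid markers was called by limma. At an unadjusted p under 0.05 these lists gave 3, 3, 1, 1 and 0 genes. In the same order, 8, 9, 11, 4 and 2 of the markers had means under the median of all rows in both groups. Signal above background was not shown for those. Cryaa, a lens crystallin, was at 11.11, 9.44 and 9.71 in mutant and at 9.96, 9.24 and 8.97 in rescued pools (adjusted p = 0.317). With the lens level of each pool as a covariate, 826 genes were called higher and 727 lower, and 28 of the 43 actin and contractile genes fell. The lens level was higher in every WT pool than in any mutant or rescued pool, so this covariate is not independent of group. Among 18 conjunctiva and goblet cell markers 3 rose and 3 fell, with Krt18, Krt8 and Muc4, which are also epithelial genes of the lists above, among them.

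Antioxidant, heat shock, Notch and gland genes complete the lists, and 6.46% of all genes were called higher and 6.88% lower. Of 24 antioxidant and glutathione genes 3 rose and 3 fell, and 1 fell without mutant pool 1 or rescued pool 3. Of 12 heat shock genes 5 fell and none rose, with Hspb8, a small heat shock protein, down by 0.80 (adjusted p = 0.00116). That count was 2 without mutant pool 1 or rescued pool 1, 1 without mutant pool 3 or rescued pool 3 and 3 without rescued pool 2. Of 18 Notch pathway genes 2 rose and 1 fell, and Maml2, a Notch coactivator, rose by 0.36 (adjusted p = 0.0102). The Notch risers were 1 when any mutant pool, rescued pool 3 or WT pool 2 or 3 was left out. The 1 that fell was not called without any single mutant pool or without rescued pool 3, and 2 fell without rescued pool 2. Of 10 lacrimal and meibomian gland markers 1 rose and 2 fell, and in most leave-outs 1 or none of them was called in either direction.

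**Figure D5:**
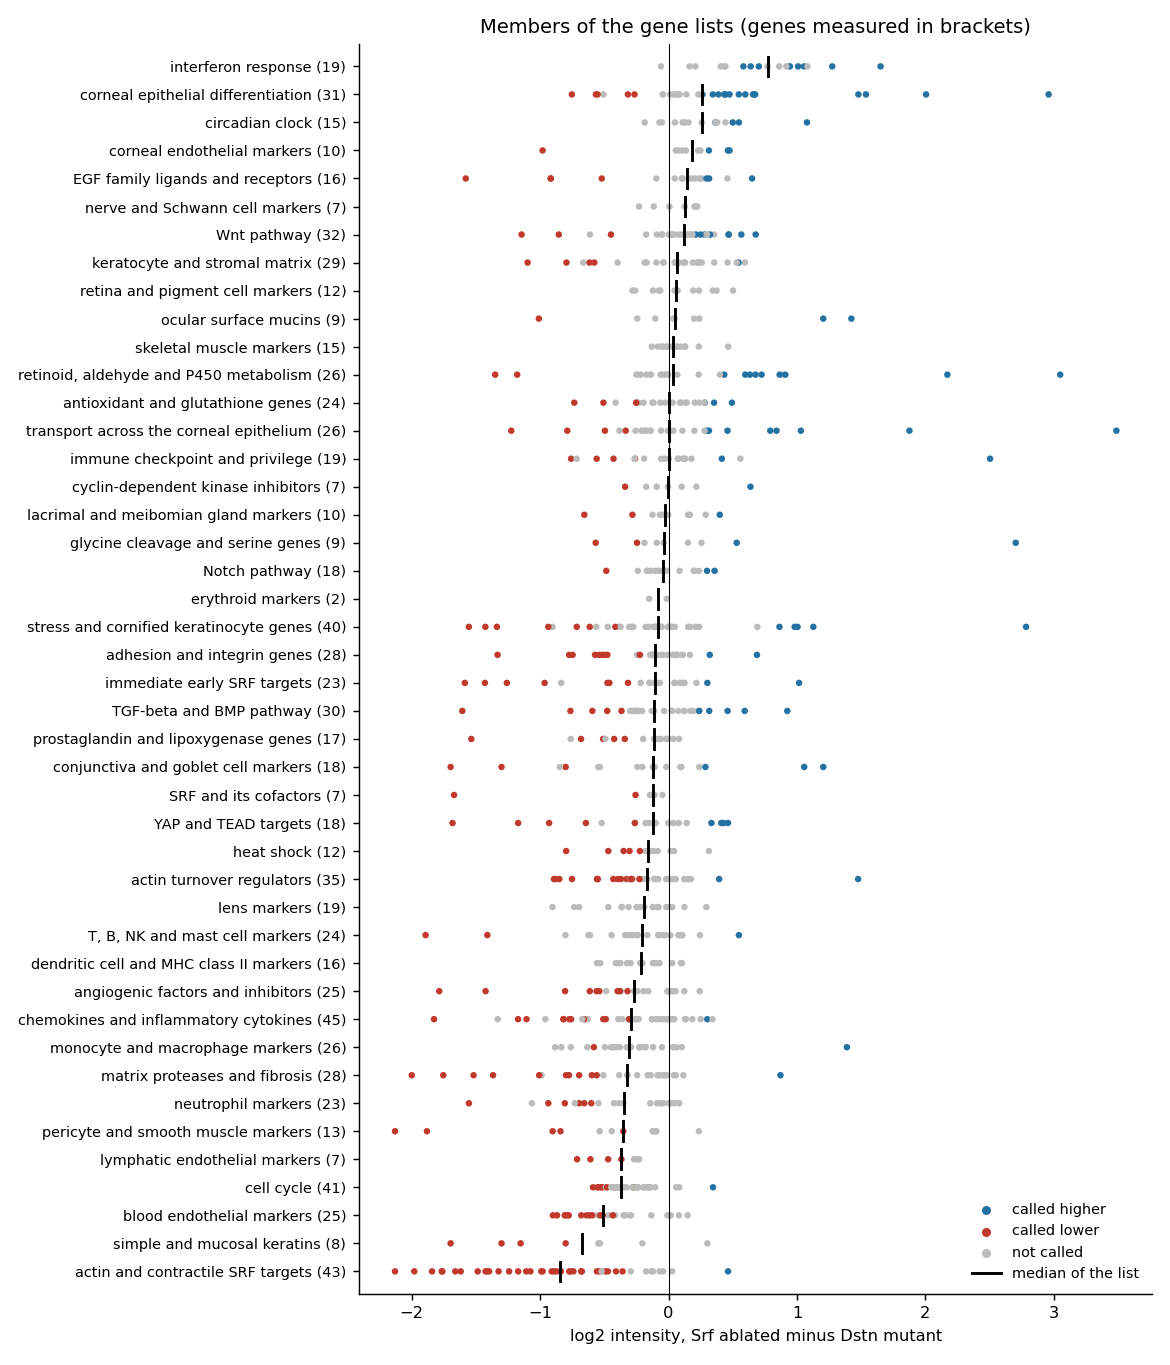
Log2 difference between Srf ablated and Dstn mutant corneas (x axis) for every measured member of the gene lists (y axis, genes measured in brackets, sex-linked genes not drawn), with called genes in colour and a black bar at each list's median. The actin and contractile list lies at −0.84 at the bottom and the interferon response list at 0.77 at the top.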

How the data were processed

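Total RNA of pooled whole corneas was labelled with biotin and hybridised to single-colour Affymetrix arrays, per the labels' protocols. Values were deposited by the authors as normalised log2 intensities. How they were normalised is not stated in any source used here, and the log base was inferred from the range of 2.14 to 14.3. Of 41345 rows, 23521 have exactly 1 gene symbol in the platform annotation, 1814 several and 16010 none. The brightest row stood for each of 1082 genes with more than 1 row, which left 22180 genes with no filter on intensity.

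A single model over all 9 arrays was fitted in R 4.3.3 with limma 3.58.1 (lmFit, contrasts, eBayes, two-sided). Calls required a p under 0.05 after Benjamini-Hochberg adjustment, and SEs are limma's moderated values. In simulated data of the same size, 52%, 90%, 98% and 100% of genes changed by 0.5, 1, 2 and 3 on the log2 scale were recovered for this comparison, with 10 false calls. Only 50 of 22180 genes were changed at each size, whereas 13.3% of genes were called in the real data. How far these rates hold for the real data was not tested. Replicate numbers do not pair the arrays: deviations of same-numbered arrays from their group means correlated between −0.02 and 0.06.

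The comparison, the 45 gene lists (872 genes measured, some in more than 1 list, 55 entries not matched and not analysed here) and the alternatives were chosen with earlier results of these data known. Named were Srf, Dstn and the SRF cofactors, the 15 largest increases and 15 largest decreases among calls with non-overlapping groups (leaving out model and clone symbols, receptor and antibody segment families and small RNA genes), the 4 most changed members per list at most (10 for the actin and contractile list), and Krt12, Pax6, Ptprc, Pecam1, Kera, Cryaa and Xist. Fos, Egr1, Krt17, Krt16, Krt6a, Actb, Actg1, Myl9, Mylk, Kif23, Gsn, Cd14 and the other genes named without being covered by this rule, as well as the microRNAs, were chosen after their values were seen. Folds are ratios of intensities. CArG boxes were searched in RefSeq promoter windows. Pools are biological replicates in the labels, and their number limits the precision. Figures were drawn with matplotlib 3.10.9.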

Additional observations from a re-analysis of the deposited data

How the results depend on the processing

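Srf stayed lower and called in every alternative run, between −1.89 and −1.39 when 1 pool was left out, and Dstn differed by −0.05 to 0.08 in those. No called gene that the naming rule covers changed sign in any of the 20 alternatives. Several genes not called changed sign, among them Dstn without mutant pool 2, Alox15 without rescued pool 3 and Cryaa with the lens covariate. Cryaa is 1 of the 3 genes that make up that covariate, so most of its difference is removed by construction there. Crygd (−0.47) and Eif2s3y (−0.58) reached 0.10 and 0.33 when a single pool was left out. The number of genes called higher (1432) was 826 with the lens level as a covariate, 767 at an adjusted p under 0.01, 166 with a 2-fold minimum and 971 to 1368 without 1 pool. The number called lower (1527) was 727, 653 and 146 in the same 3 alternatives and 837 to 1458 without 1 pool. The actin and contractile genes that fell (34) were 16 with a 2-fold minimum and 30 to 34 without 1 pool. With the replicate block 2507 genes were called (1199 higher, 1308 lower, 33 actin and contractile genes lower), and 11 of 145 named calls were lost. With the lens covariate 32 of these 145 were lost, and 34 of 88 list counts moved by more than 1.5 times. The share of calls that were higher was 48.4%, and 44.2% to 54.0% over the alternatives. When the search for a CArG box was limited to the bases before the start, 1.47% of all windows held it (1.63% over whole windows), as did 1.49% of all genes, 3.8% of those called lower, 12.6% of those lower at least 2-fold and 8.16% of the latter outside the actin and contractile list. The cause of these shifts was not tested, apart from the stricter thresholds, which admit fewer genes by construction. For genes below the median intensity, signal above background was not shown, and folds are lower bounds.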
